A study of Mus musculus with 12 samples.

Results

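The comparison described here set day 90 against day 60 within a mouse model of gastric carcinoma, and took in 6 of the 12 arrays of the series: 3 from antra of 90 day old mice and 3 from antra of 60 day old mice, each array from a separate mouse. Members were chosen by the age label alone. The 90 day old group and the 60 day old group were both hemizygous for the CEA424-SV40 TAg transgene on a C57BL/6 background. The T antigens were thus carried on both sides of the comparison, and the groups differ in their age label. Anything else that differed between the groups, such as slide, scan date or the share of normal tissue, cannot be told apart from age. The transgene places the SV40 T antigens under a minimal promoter of the human carcinoembryonic antigen gene, and per the labels the antral samples held tumor together with normal tissue. No treatment was given in the labels. The other 6 arrays came from non-transgenic control mice and from 30 day old transgenic mice (3 each). They were used for normalization, for the filter on dim probes, in 1 alternative fit and as a scale for the levels seen at day 60.

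The antrum is the distal part of the stomach. Its glands hold surface mucous cells, enteroendocrine cells that store peptide hormones and amines in dense-core granules, and, at lower density than in the corpus, acid-secreting parietal cells. Large T antigen binds the retinoblastoma proteins and p53, and so releases E2F transcription factors and drives cells into S phase; cells of the endocrine lineage are recognised by granins, prohormone-processing enzymes, the regulated exocytosis machinery and a set of lineage transcription factors. Because each array measured a whole piece of antrum, fewer cells of a type and less RNA per cell cannot be told apart, and neither can more of each.

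Signal was read as normalized bead intensity, on which 100 was taken as the limit of background. A probe was called changed at an adjusted p under 0.05 in limma with Benjamini-Hochberg correction over all 22067 probes tested. By that rule 4363 probes (19.8%) differed between the ages: 2193 (9.94%) were higher at day 90 and 2170 (9.83%) were lower. Of those higher, 332 had no day 60 array above 100, and of those lower, 92 had no day 90 array above 100. Past 2-fold the balance shifted, with 612 probes higher and 336 lower, and past 4-fold there were 143 higher and 49 lower. At an unadjusted p under 0.05 there were 6561 probes. The median log2 fold change over all probes tested was -0.04. Without day 60 mouse 3 the number of probes lower at day 90 came to 1398, and without day 90 mouse 1 the total came to 4884.

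**Figure D1:**
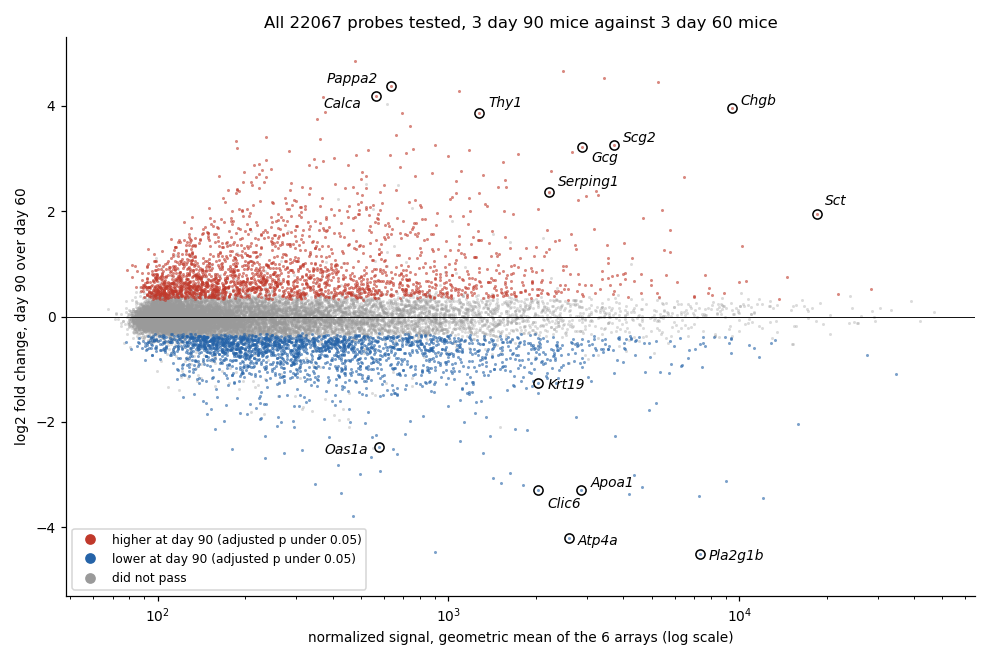
Log2 fold change of day 90 over day 60 (vertical axis) against the geometric mean of normalized signal over the 6 arrays (horizontal log axis), 1 point per probe. Red and blue points passed the test, grey points did not, and circled genes are described in the text; the labelled points run from Pla2g1b at 22.8-fold lower to Pappa2 at 20.8-fold higher.

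Day 90 arrays stood apart from every other array of the series. Pairs of day 90 arrays correlated at 0.958 to 0.982 over log2 signal and pairs of day 60 arrays at 0.973 to 0.978, whereas pairs of 1 day 90 and 1 day 60 array gave 0.898 to 0.942. The first principal component, which held 47% of the variance over the 12 arrays, placed day 90 mice at 46.8 to 67.7 and the other 9 mice at -33.9 to -1.09. The probe for SV40 large T antigen read 175, 175 and 143 in day 90 mice 1 to 3, against 159, 112 and 106 in day 60 mice 1 to 3. The ranges overlapped, and the log2 fold change of 0.41 ± 0.16 (SE) did not pass the test (adjusted p = 0.112); without day 60 mouse 1 it was 0.59 (adjusted p = 0.016). A second transgene probe, shared by both T antigens, read 110.7, 113.16 and 99.66 in day 90 mice 1 to 3. It read 106.5, 93.99 and 88.15 in day 60 mice 1 to 3, with overlap. Its log2 fold change of 0.17 did not pass the test either (adjusted p = 0.398). The sex of the mice was not in the labels; the Y-linked gene Eif2s3y read 574 in day 90 mouse 2 and 502 in day 60 mouse 1, and 59.0 to 84.9 in the other 4 mice, so 1 mouse of each age carried the Y-linked signal.

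Gene names were available for part of the array, and 2829 of the changed probes have no name here. Of 5496 named genes, each on its brightest probe, 751 (13.7%) were higher and 603 (11.0%) lower at day 90. Some names rest only on tables published with the study. The first holds genes selected as higher at day 90 than in control antrum. The other holds transcription factor and DNA-binding genes shown for their signal, most of them higher at day 90 than in control. Genes named this way alone are marked † at first mention, and their direction is not independent evidence. Each list count below is to be read against 13.7% higher and 11.0% lower among all named genes. Beside each list the count among genes named from the probe identifier is given. Among the 5323 genes named that way, 574 (10.8%) were higher and 603 (11.3%) lower.

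**Figure D2:**
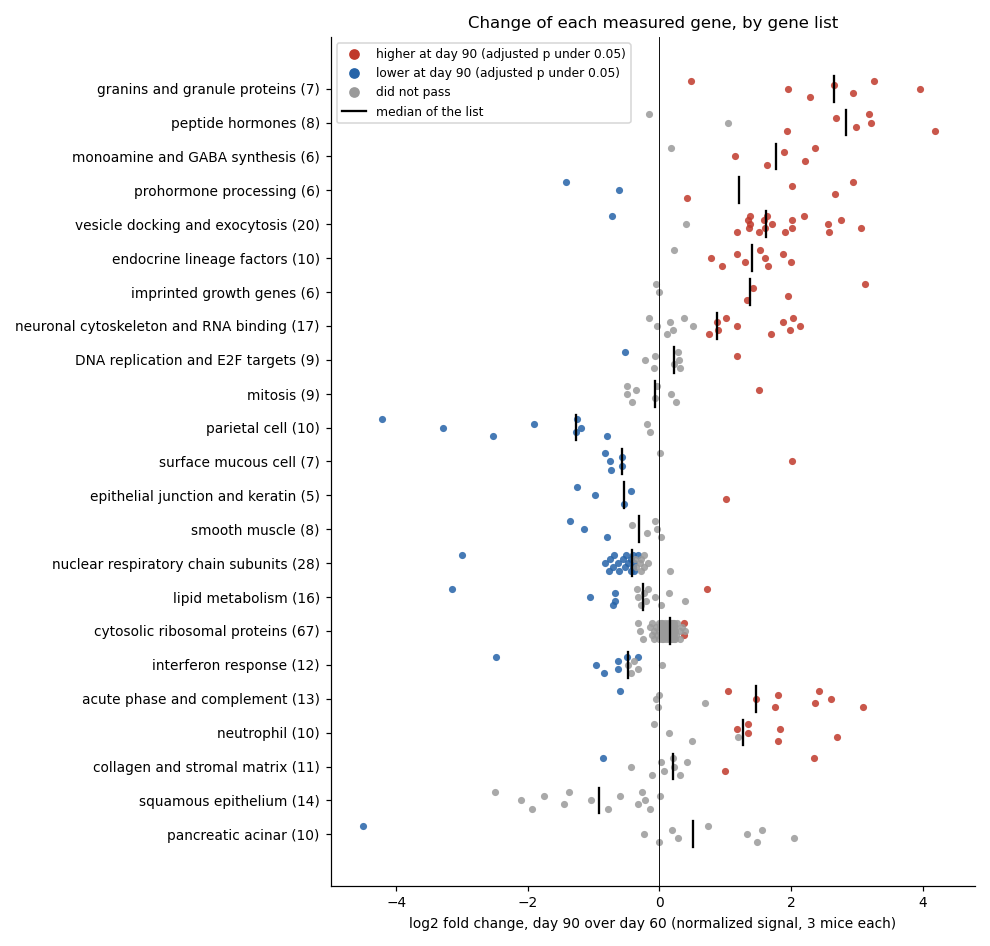
Log2 fold change of day 90 over day 60 for each measured gene (1 point, brightest probe) in 23 gene lists, with the number of genes tested in brackets and a black bar at the list median. Endocrine lists lie to the right of 0 (medians up to 2.84 in peptide hormones), parietal cell, surface mucous and respiratory chain genes to the left, and DNA replication, mitosis and ribosomal protein genes close to 0.

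Genes of the dense-core granule were among the largest rises. Chgb† (chromogranin B, a granule matrix protein) read 39135, 41563 and 31368 in day 90 mice 1 to 3, against 4374, 1777 and 1755 in day 60 mice 1 to 3. Every day 90 mouse was above every day 60 mouse, and day 60 mouse 1 was the highest of its age. Mean signal was 37355 ± 5325 at day 90 and 2635 ± 1506 at day 60 (SD, n = 3 each), a 15.5-fold difference (log2 3.96 ± 0.30 (SE), adjusted p = 1.6e-05). Scg2 (secretogranin II) read 9317, 13173 and 12327 in the day 90 mice and 1979, 1034 and 842 in the day 60 mice. The order within each age was again such that day 60 mouse 1 was highest among the younger mice, with no overlap between ages, and the difference was 9.58-fold (log2 3.26 ± 0.27, adjusted p = 2.65e-05).

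All 7 granin and granule genes tested were higher at day 90, against 13.7% of all named genes, with a median log2 fold change of 2.65 against -0.03 over all named genes, and 3 of 3 among those named from the probe identifier were higher. The other five were Scg5† (the chaperone of proprotein convertase 2, 7.67-fold), Resp18† (6.29-fold), Chga† (chromogranin A, 4.90-fold), Pcsk1n (the inhibitor of proprotein convertase 1, 3.87-fold) and Ptprn2 (a granule membrane phosphatase homolog, 1.39-fold). Summed over the list, signal was 70538, 91581 and 71686 in day 90 mice 1 to 3 and 13825, 6933 and 6353 in day 60 mice 1 to 3. For 5 of the 7, the day 60 mice were already above all 6 control and day 30 mice.

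The promoters of the granin genes with the largest folds are shown because both carry the cyclic AMP response element, an element known from work on granin promoters. The 250 bases before the start site, from RefSeq on mouse build GRCm38.p6, run 5′ to 3′ toward the gene with the element TGACGTCA in capitals, for Chgb at chr2:132781392-132781641 (plus strand) and for Scg2 at chr1:79440027-79440276 (minus strand).
Chgb: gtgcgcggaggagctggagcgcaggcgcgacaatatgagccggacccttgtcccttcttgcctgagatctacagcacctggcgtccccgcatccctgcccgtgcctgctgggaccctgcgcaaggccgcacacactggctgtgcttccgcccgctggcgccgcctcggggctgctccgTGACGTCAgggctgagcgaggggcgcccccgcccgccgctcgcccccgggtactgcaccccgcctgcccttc
Scg2: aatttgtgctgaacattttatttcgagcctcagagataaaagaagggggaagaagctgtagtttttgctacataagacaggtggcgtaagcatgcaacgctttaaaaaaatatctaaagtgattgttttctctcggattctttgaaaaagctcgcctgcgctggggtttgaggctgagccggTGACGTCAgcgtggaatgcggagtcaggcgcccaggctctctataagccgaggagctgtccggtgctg
The element ends 64 bases before the start site in Chgb and 60 bases before it in Scg2. It was found in 2 of the 7 granin genes, in 0 of the 7 peptide hormone genes with an entry and in 1 of the 13 exocytosis genes with an entry, on either strand. Of all 27025 genes in RefSeq's promoter set, 478 (1.77%) hold it in at least 1 entry. The match describes letters only, and no binding was measured.

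Peptide hormones of several gut and neural cell types were higher together. Of 8 tested, 6 were higher and 0 lower (median log2 fold change 2.84; among the 2 named from the probe identifier, 1 was higher). Calca (calcitonin and calcitonin gene-related peptide) read 1260.4, 3370.4 and 3271 in day 90 mice 1 to 3, against 193, 139 and 85.2 in day 60 mice 1 to 3. Day 90 mouse 1 was the lowest of its age yet lay well above all day 60 mice, of which mouse 3 was below 100. The mean was 2634 ± 1191 at day 90 and 139 ± 54.1 at day 60, an 18.3-fold difference (log2 4.19 ± 0.37, adjusted p = 4.12e-05), and a second Calca probe gave a log2 fold change of 3.87. Gcg† (preproglucagon, the precursor of the glucagon-like peptides) read 7878, 9978 and 8642 in the day 90 mice and 1923, 737 and 591 in the day 60 mice. Its ages did not overlap, with a 9.33-fold difference (adjusted p = 0.000118), and day 60 mouse 1 had more than the other two mice of its age combined.

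Grp† (gastrin-releasing peptide) was 9.06-fold higher and Cck† (cholecystokinin) 7.92-fold higher, both with every day 90 mouse above every day 60 mouse. Pdyn† (prodynorphin, an opioid peptide precursor) was 6.44-fold higher. Sct† (secretin) had the highest level of the list and read 46339.7, 43594 and 23866 in the day 90 mice, against 14942, 8945 and 6347 in the day 60 mice. All day 60 values of Sct already exceeded every control and day 30 value, the highest of which was 3613, and the further rise was 3.84-fold (adjusted p = 0.00125). The members that did not pass were Iapp† (islet amyloid polypeptide, log2 fold change 1.05, adjusted p = 0.066) and Adcyap1 (log2 fold change -0.16, adjusted p = 0.51).

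**Figure D3:**
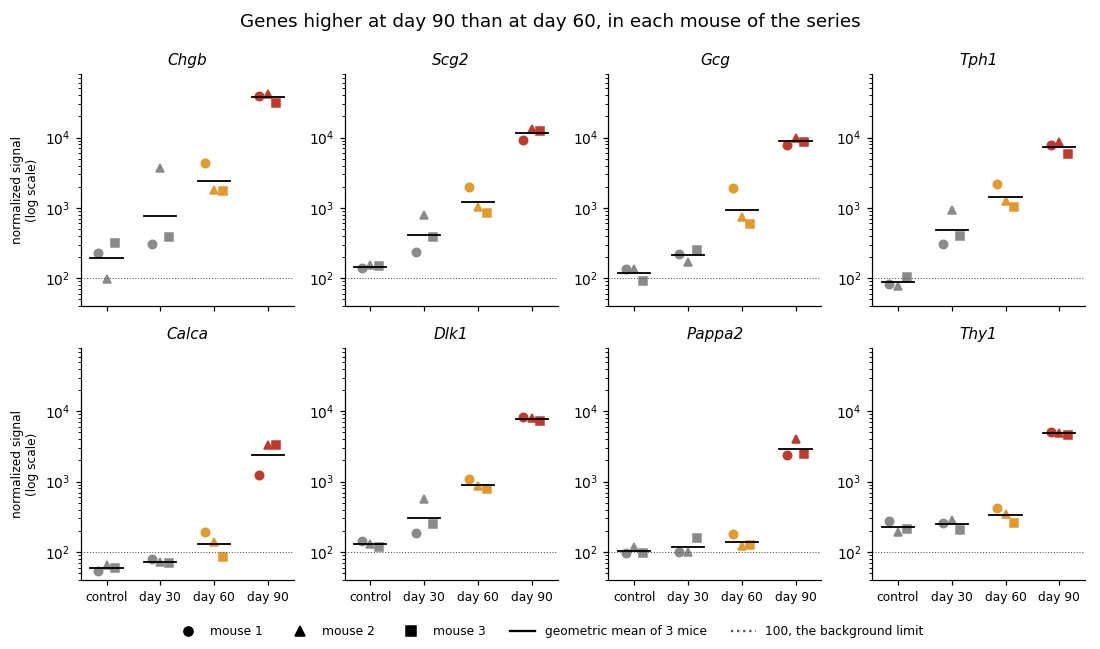
Normalized signal (log axis) of 8 genes in every mouse of the series, by group (control, day 30, day 60, day 90), with mouse 1 as circle, mouse 2 as triangle and mouse 3 as square, a black bar at the geometric mean and a dotted line at the background limit of 100. In all 8 genes the 3 day 90 mice lie above the 3 day 60 mice; day 30 mouse 2 reached 3686 for Chgb, above 2 of the 3 day 60 mice.

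Enzymes that make monoamines and GABA were higher as well. Tph1†, which carries out the first step of serotonin synthesis outside the brain, read 7821, 8540.1 and 5920.1 in day 90 mice 1 to 3, against 2216, 1268 and 1012 in day 60 mice 1 to 3. There was no overlap, and the difference was 5.18-fold (log2 2.37 ± 0.25, adjusted p = 0.000111). Ddc† (the aromatic amino acid decarboxylase) was 3.11-fold higher and Hdc† (which makes histamine) 2.23-fold higher. Of the glutamate decarboxylases that make GABA, Gad2† was 4.63-fold higher, and Gad1† was at least 2.54-fold higher, since all day 60 values (67.7, 77.8 and 60.2) were at or below 100 and the fold was set against that limit (adjusted p = 6.22e-05). The vesicular transporter Slc18a2 did not pass (log2 fold change 0.17, adjusted p = 0.46), so 5 of 6 members were higher. Among the 2 named from the probe identifier, 1 was higher. Gad1 exceeded 100 on the day 90 arrays alone, so it passed the filter on dim probes only through the older mice. Its place in the count is therefore not separate support. Hdc is also a mast cell gene: the other 3 mast cell genes tested did not pass, and the list summed to 1030 to 1196 at day 90 and 644 to 794 at day 60; the part of mast cells in the Hdc value was not tested.

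Prohormone-processing genes split by pathway. The granule enzymes Pcsk2 (proprotein convertase 2, 6.35-fold, adjusted p = 2.42e-05) and Cpe† (carboxypeptidase E, 4.05-fold, adjusted p = 9.84e-05) were higher, as was Scg5. Furin, the convertase of the constitutive secretory pathway, read 140.4, 122 and 155 in the day 90 mice, against 407, 352 and 358 in the day 60 mice. That is 2.68-fold lower with no overlap (adjusted p = 3.67e-05), and the trans-Golgi carboxypeptidase Cpd was 1.53-fold lower (adjusted p = 0.00184). Over the list 4 of 6 were higher and 2 lower (2 and 2 of the 4 named from the probe identifier); Pam, the amidating enzyme, lost its call when any of 4 single mice was left out, with a highest adjusted p of 0.133 without day 60 mouse 3.

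The regulated exocytosis machinery was higher nearly throughout, with 18 of 20 genes higher, against 13.7% of all named genes, 1 lower and a median log2 fold change of 1.62 (9 higher and 1 lower of the 13 named from the probe identifier). Syt4 (a synaptotagmin of secretory vesicles) read 1506, 2042 and 1947 in day 90 mice 1 to 3, against 312, 197 and 169 in day 60 mice 1 to 3. The groups were far apart, 8.33-fold (adjusted p = 1.1e-05), though a second Syt4 probe near background gave a log2 fold change of 0.07. Snap25†, a SNARE of the plasma membrane, was 6.77-fold higher, though a second Snap25 probe, dim on all arrays, gave a log2 fold change of -0.08. Syp (synaptophysin, a vesicle membrane protein) was 5.92-fold higher, Cplx1† (complexin) 4.59-fold and Sv2a 4.03-fold. The member that was lower was Rab27b, a granule-docking GTPase (log2 fold change -0.73, adjusted p = 0.00088), and Cplx2 did not pass (log2 fold change 0.40, adjusted p = 0.096).

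Transcription factors of the endocrine lineage were higher too: 9 of 10 passed, 0 were lower, and the median log2 fold change was 1.41 (4 of the 5 named from the probe identifier). Insm1†, a zinc-finger factor of endocrine progenitors, read 1270, 1239.6 and 1319 in day 90 mice 1 to 3, against 507, 324 and 257 in day 60 mice 1 to 3. The day 90 mice were nearly equal, the day 60 mice spread with mouse 1 highest, and the difference was 3.66-fold (adjusted p = 0.000137). Nkx2-2 was 3.15-fold higher, Myt1† 3.05-fold, St18† 2.89-fold and Neurod1† 2.46-fold. Etv1, an ETS factor, was 4.02-fold higher on its brightest probe and gave log2 fold changes of 0.54 and 0.13 on its other probes, which lay near background. Sox4 did not pass (log2 fold change 0.22, adjusted p = 0.33).

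Genes outside the secretory lists stood among the largest rises as well. Pappa2†, a metalloproteinase that cleaves insulin-like growth factor binding proteins, read 2423, 4026 and 2493 in day 90 mice 1 to 3, against 179, 121 and 124 in day 60 mice 1 to 3. At day 60 it overlapped the control and day 30 range of 97.5 to 158, so that only day 90 stood above the earlier arrays, and the difference was 20.8-fold (log2 4.38 ± 0.21, adjusted p = 1.08e-06). Thy1†, a cell surface glycoprotein of neurons and thymocytes, was even among the older mice, with 5025, 4871 and 4658 in the day 90 mice and 427, 341 and 256 in the day 60 mice. The ages did not overlap, and the difference was 14.5-fold (adjusted p = 8.43e-07). Eef1a2, a translation elongation factor otherwise typical of neurons and muscle, was 8.97-fold higher, Sbp† (spermine binding protein) 8.62-fold, and Rufy3, known from axon formation, 7.30-fold on its brightest probe with a log2 fold change of -0.08 on a second.

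Among imprinted genes 4 of 6 were higher, against 13.7% of all named genes, and 0 lower (2 of the 4 named from the probe identifier were higher). Dlk1†, a membrane protein related to Notch ligands, read 8312, 7898 and 7312 in day 90 mice 1 to 3, against 1083, 870.5 and 774 in day 60 mice 1 to 3. The ages did not overlap, the spread within each was small, and the difference was 8.70-fold (log2 3.12 ± 0.14, adjusted p = 8.43e-07); its second probe, named from the probe identifier, gave a log2 fold change of 3.26. Peg3 was 3.87-fold higher, Ndn† 2.69-fold and the noncoding RNA Meg3† 2.52-fold, while Mest and Plagl1 had log2 fold changes of 0.00 and -0.04.

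Neuronal cytoskeleton and RNA-binding genes were mixed, with 10 of 17 higher, 0 lower and a median log2 fold change of 0.87 (8 of the 15 named from the probe identifier). Gap43, a growth cone protein, read 1182, 1119 and 815 in the day 90 mice and 286, 216 and 203 in the day 60 mice. It was 4.41-fold higher without overlap (adjusted p = 2.28e-05), and the splicing factor Rbfox1 was 4.10-fold, Tagln3† 3.98-fold, Elavl3† 3.69-fold and Stmn3 3.25-fold higher. Map1b was 2.01-fold higher on its brightest probe, with a log2 fold change of 0.07 on a second. The neuronal tubulin Tubb3 (log2 fold change -0.16, adjusted p = 0.38), the neurofilament Nefl (-0.04, adjusted p = 0.88) and Mapt (0.17, adjusted p = 0.44) did not pass. Of the 5 enteric neuron genes tested, 4 were higher, and the list summed to 7000 to 10235 at day 90 and 1367 to 2183 at day 60; these genes are shared with endocrine cells, and the part of neurons in the rise was not tested.

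Of genes of DNA replication and mitosis a share near that of all named genes passed the test (13.7% higher, 11.0% lower), and neither of those that were higher is called on a probe named from its identifier. Of 9 replication and E2F target genes, 1 was higher (Cdkn2a†, which encodes the inhibitors p16 and p19ARF, 2.27-fold) and 1 lower (Tk1, 1.44-fold, which lost its call when any of 4 single mice was left out, adjusted p up to 0.11). Pcna had a log2 fold change of 0.31 (adjusted p = 0.11). Of 9 mitosis genes 1 passed, the kinetochore gene Spc25†, with 2785, 3075 and 2183 in day 90 mice 1 to 3 and 1315, 810.3 and 751 in day 60 mice 1 to 3. Spc25 did not overlap between ages on this probe (2.86-fold, adjusted p = 0.000501), while its probe named from the identifier did not pass (log2 fold change 0.34, adjusted p = 0.16), and Mki67 (log2 fold change 0.25, adjusted p = 0.58) and Ccnb1 (0.18, adjusted p = 0.74) did not pass. Without day 90 mouse 1, in which the mitosis list summed to 8065 against 6050 and 4369 in day 90 mice 2 and 3, 4 of the 9 were lower at day 90. Of 5 p53 target genes 1 was higher, against 13.7% of all named genes: Zmat3 (1.43-fold, adjusted p = 0.00727). Cdkn1a did not pass (log2 fold change -0.21, adjusted p = 0.35).

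Parietal cell genes were among the largest falls. Atp4a, which encodes the alpha subunit of the proton pump that acidifies gastric juice, read 792, 431 and 637 in day 90 mice 1 to 3, against 10148, 11240.3 and 12139.8 in day 60 mice 1 to 3. All day 90 mice lay far below all day 60 mice and also below every control and day 30 mouse, the lowest of which had 3527. Mean signal was 620.3 ± 181 at day 90 and 11176 ± 998 at day 60, which is 18.5-fold lower (log2 -4.21 ± 0.19, adjusted p = 1.01e-06). Clic6, a chloride channel family member, read 835, 531 and 629 in the day 90 mice, against 5118, 7391 and 6823 in the day 60 mice. It did not overlap and was 9.75-fold lower (adjusted p = 3.27e-06).

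Of 10 parietal cell genes tested 8 were lower, against 11.0% of all named genes, and 0 higher, all named from the probe identifier, with a median log2 fold change of -1.26. The potassium channels Kcnj15 (5.79-fold lower) and Kcnq1 (2.40-fold lower), the anion exchanger Slc4a2 (3.76-fold lower), the membrane linker Ezr (2.39-fold lower), the water channel Aqp4 (log2 fold change -1.20, adjusted p = 0.00013) and the sodium proton exchanger Slc9a4 (log2 fold change -0.80, adjusted p = 0.00046) completed the 8. Vdac1 and Ckb, which are widely expressed, did not pass (log2 fold changes -0.19 and -0.14). In all 8 the day 90 mice were below the 6 control and day 30 mice too. Summed over the list, signal was 17925, 16831 and 15530 in day 90 mice 1 to 3 and 35751, 43984 and 41787 in day 60 mice 1 to 3. The basic helix-loop-helix factor Bhlha15, a chief cell gene and the only one of its list tested, was 1.99-fold lower (adjusted p = 0.00134), with a log2 fold change of -0.06 on a second, dimmer probe.

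**Figure D4:**
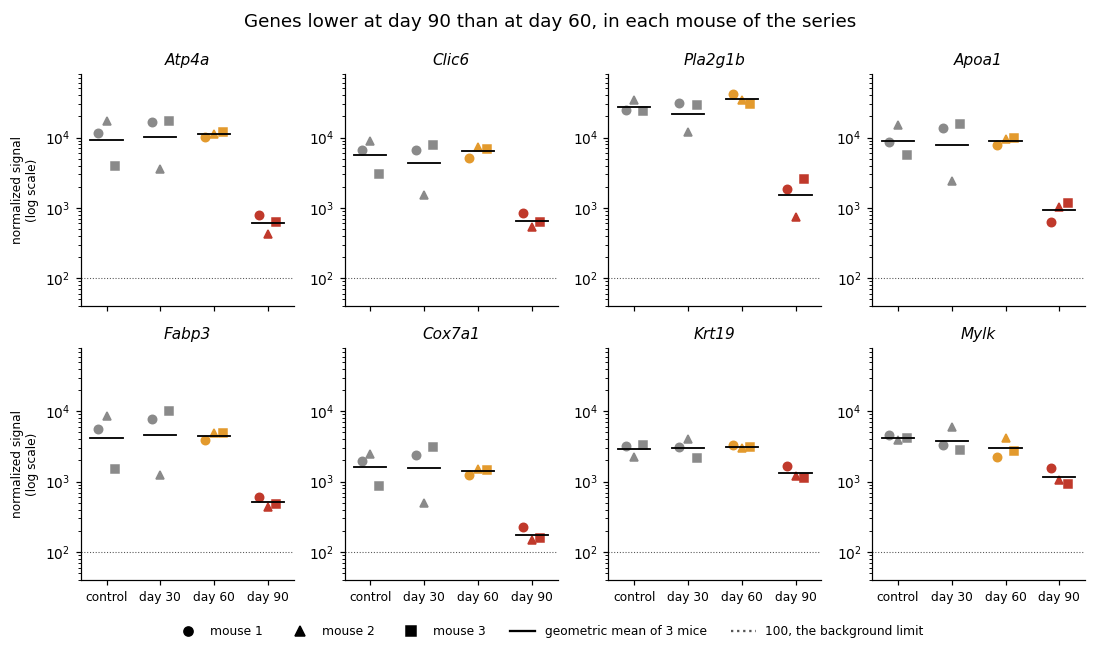
Normalized signal (log axis) of 8 genes in every mouse of the series, by group (control, day 30, day 60, day 90), with mouse 1 as circle, mouse 2 as triangle and mouse 3 as square, a black bar at the geometric mean and a dotted line at the background limit of 100. Day 90 mice lie below day 60 mice in every panel, from 22.8-fold for Pla2g1b to 2.39-fold for Krt19; Atp4a in control mice varied between 3931 and 17193.

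Genes of secreted and lipid-handling proteins were also among the largest falls. Pla2g1b, a secreted phospholipase A2, read 1856, 751 and 2582 in day 90 mice 1 to 3, against 41563, 34656 and 29546 in day 60 mice 1 to 3. Control mice had 23866 to 34656, so the day 60 range overlapped that of control antrum and the day 90 mice lay below both; the difference was 22.8-fold (log2 -4.51 ± 0.35, adjusted p = 2.11e-05). Pla2g1b is also a pancreatic acinar gene: the other 9 acinar genes tested did not pass, and summed to 2070, 24686 and 93040 in day 90 mice 1 to 3 and 1819, 1694 and 90590 in day 60 mice 1 to 3, with overlap; the part of pancreatic tissue in its fall was not tested. Apoa1, the main protein of high-density lipoprotein, read 625, 1042 and 1188 in the day 90 mice, against 7731, 9534 and 9740.3 in the day 60 mice. It was 9.75-fold lower with no overlap (adjusted p = 7.14e-06), while the intestinal apolipoproteins Apoa4 and Apoc3 did not pass (adjusted p = 0.68 and 0.61). Of the 9 small intestine genes tested, Apoa1 included, 2 were higher and 1 lower, against 13.7% higher and 11.0% lower among all named genes. Without Apoa1 the other 8 summed to 839, 1599 and 1879 in day 90 mice 1 to 3 and 1266, 1252 and 1383 in day 60 mice 1 to 3, so that the ages overlapped.

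Fabp3 (a fatty acid binding protein of oxidative tissues) was 8.91-fold lower, Mogat1 (a monoacylglycerol acyltransferase) 7.63-fold, Fa2h (fatty acid 2-hydroxylase) 6.39-fold and Lpl (lipoprotein lipase) 6.12-fold lower. Ldhb, the heart-type lactate dehydrogenase, was 5.69-fold lower and Gsdma2, a gasdermin, 4.84-fold lower. Among the control and day 30 mice Fabp3 ranged from 1230 to 10200, Mogat1 from 420 to 2050, Fa2h from 531 to 2910 and Ldhb from 622 to 3010. The day 90 mice lay below each range. For each of these genes control mouse 3 and day 30 mouse 2 were the lowest of the earlier mice, as they were for Atp4a. The part of parietal cells in these falls was not tested. On the list of lipid metabolism 5 of 16 genes were lower and 1 higher, against 11.0% and 13.7% of all named genes (median log2 fold change -0.26). Hmgcs1, an enzyme of cholesterol synthesis, was 2.09-fold lower, Pnpla2 (adipose triglyceride lipase) 1.63-fold and Hadhb, an enzyme of fatty acid oxidation, 1.59-fold lower. The member that was higher, Scd2, lost its call when any of 4 single mice was left out (adjusted p up to 0.153). Fasn (fatty acid synthase) did not pass (adjusted p = 0.13). Of 4 adipocyte genes 2 were lower (Lpl and Plin4, 1.63-fold) and 1 higher (Cidea†, 4.36-fold).

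Nuclear-encoded subunits of the respiratory chain were lower in small, even steps. Of 28 tested 19 were lower, against 11.0% of all named genes, and 0 higher, with a median log2 fold change of -0.42 and 1 positive value. Cox7a1, the complex IV subunit of heart and muscle, was the exception in size, with 226, 150.2 and 159 in day 90 mice 1 to 3 and 1229, 1508 and 1485 in day 60 mice 1 to 3. It was 7.98-fold lower (adjusted p = 2.7e-06). Among the control and day 30 mice Cox7a1 ranged from 497 to 3080, and control mouse 3 and day 30 mouse 2 were again the lowest. The next in size, Ndufa10 of complex I, read 1102, 908 and 894 in the day 90 mice and 1584, 1745 and 1801 in the day 60 mice. That is 1.77-fold lower without overlap (adjusted p = 0.000799). Sdhb of complex II (1.71-fold lower) and Cyc1 of complex III (1.63-fold lower) were of the same size. The count varied with the mice: it was 10 without day 60 mouse 2, 11 without day 60 mouse 3, 12 without day 90 mouse 2 and 9 without day 90 mouse 3, and it was 9 when all 4 groups were fitted together. Of 13 probes for genes encoded on mitochondrial DNA, 2 were lower, against 9.83% of all probes, and 0 higher.

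Markers of gastric surface epithelium were lower by smaller folds. Of 7 surface mucous genes 5 were lower and 1 higher, against 11.0% and 13.7% of all named genes. Psca, the brightest, read 23035, 18668 and 22524 in day 90 mice 1 to 3, against 36415, 36415 and 33346 in day 60 mice 1 to 3. It was 1.66-fold lower with no overlap (adjusted p = 0.00145), and the transcription factors Klf4 and Elf3 were 1.78-fold and 1.68-fold lower. In 3 of the 5 that were lower, the day 90 mice lay below the 6 control and day 30 mice. Klf4 at day 60 was above those 6 mice (1160 to 1780), and at day 90 it overlapped their range. Muc13, a membrane mucin, was 4.06-fold higher (adjusted p = 0.000237), with 259, 523 and 445 in the day 90 mice and 93.5, 122 and 79.4 in the day 60 mice; control mouse 3 had 4083 for it. Of the 5 keratin and junction genes 4 were lower and 1 higher. Krt19, a keratin of simple epithelium, read 1676, 1194 and 1139.6 in the day 90 mice and 3279.8, 3023 and 3134 in the day 60 mice. It was 2.39-fold lower (adjusted p = 0.000228), Jup (plakoglobin) was 1.97-fold lower and the claudin Cldn4 2.02-fold higher.

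Genes of muscle and of squamous epithelium, tissues that a piece of stomach can include, moved unevenly among mice. Of 8 smooth muscle genes 3 were lower, against 11.0% of all named genes, and 0 higher. The first was Mylk, the myosin light chain kinase, with 1578, 1046 and 934 in day 90 mice 1 to 3 and 2248, 4234 and 2738 in day 60 mice 1 to 3. Mylk was 2.57-fold lower (adjusted p = 0.00241); the list summed to 2373 to 3124 at day 90 and 4074 to 7496 at day 60, its count was 0 with a trended and robust estimate of spread, and the part of the muscle layer in the tissue was not tested. Of 14 squamous genes 0 passed in limma, and 2 had an unadjusted limma p under 0.05. Their sum was 9408, 1333 and 1435 in day 90 mice 1 to 3 and 2816, 16243 and 5636 in day 60 mice 1 to 3. Day 90 mouse 1 was thus high among the older mice, and without it 11 of the 14 were lower at day 90; without day 60 mouse 1 the count was 3. Of 11 collagen and matrix genes 2 were higher and 1 lower, near the shares of all named genes (13.7% higher, 11.0% lower). Thbs2 (thrombospondin 2) read 1007, 1374 and 944 in the day 90 mice and 227, 259 and 167 in the day 60 mice. That is a 5.10-fold difference without overlap (adjusted p = 2.06e-05). Col8a1 was 2.00-fold higher, and Col15a1 (1.81-fold lower) lost its call when any of 4 single mice was left out (adjusted p up to 0.111). The fibrillar collagens Col1a1, Col1a2 and Col3a1 did not pass (adjusted p = 0.30, 0.47 and 0.60). Of 5 endothelial genes 0 passed in limma, and 0 had an unadjusted limma p under 0.05.

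Interferon-induced genes were lower at day 90, and in 3 of the 7 that fell the day 60 mice were above every control and day 30 mouse. Oas1a, a 2′-5′ oligoadenylate synthetase that senses double-stranded RNA, read 354, 209 and 198 in day 90 mice 1 to 3, against 1816, 1154 and 1231 in day 60 mice 1 to 3. The day 60 mice were above all control and day 30 mice, whose highest value was 989, and the day 90 mice were below all of them, whose lowest was 405. The difference was 5.60-fold (log2 -2.49 ± 0.23, adjusted p = 5.33e-05). Its neighbour in the same family, Oas1g, read 189, 120 and 127 in the day 90 mice and 828, 503 and 545 in the day 60 mice. It was 4.29-fold lower with no overlap (adjusted p = 8.56e-05); the Oas1 genes are close in sequence, and whether their probes respond to 1 gene alone is not known here. Apol9a, an apolipoprotein L, was 4.25-fold lower (adjusted p = 2.19e-05).

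Of 12 interferon response genes 7 were lower, against 11.0% of all named genes, and 0 higher, all named from the probe identifier, with a median log2 fold change of -0.48. Their sum was 2002, 1573 and 1622 in day 90 mice 1 to 3 and 4272, 3275 and 3195 in day 60 mice 1 to 3. Igtp, an interferon gamma-induced GTPase, was 1.96-fold lower, and the interferon regulatory factors Irf9 and Irf7 were 1.80-fold and 1.55-fold lower. Ifit3 (1.55-fold lower) had an adjusted p of 0.0515 without day 90 mouse 2. Mx1, Mx2, Cxcl9 and Gbp2 had negative log2 fold changes of -0.48 to -0.33 that did not pass, Psmb8 was at 0.04, and Ddx58 passed narrowly (adjusted p = 0.046). Leaving out single mice gave 5 to 9 lower.

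The interferon-stimulated response element was sought in the same way, by its core (GAAA, any 2 bases, GAAA) on either strand of the 250 bases before each start site. It was present in 4 of the 9 interferon response genes with an entry (Gbp2, Ifit3, Igtp and Oas1a), in 3 of the 11 largest falls with an entry (Apol9a, Oas1a and Oas1g) and in 936 of all 27025 genes with an entry (3.46%). The promoters of the called list members that hold it are shown with the core in capitals, and where cores overlap they form 1 run; a core on the other strand appears as its reverse complement (TTTC, any 2 bases, TTTC). They lie on GRCm38.p6 at chr5:120907526-120907775 (Oas1a, minus strand), chr11:58199306-58199555 (Igtp, plus strand) and chr19:34583279-34583528 (Ifit3, plus strand), and are RefSeq sequence.
Oas1a: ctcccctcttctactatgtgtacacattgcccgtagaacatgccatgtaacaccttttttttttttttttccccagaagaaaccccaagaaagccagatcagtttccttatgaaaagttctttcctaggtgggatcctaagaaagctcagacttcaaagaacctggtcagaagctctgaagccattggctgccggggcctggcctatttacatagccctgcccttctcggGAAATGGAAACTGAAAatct
Igtp: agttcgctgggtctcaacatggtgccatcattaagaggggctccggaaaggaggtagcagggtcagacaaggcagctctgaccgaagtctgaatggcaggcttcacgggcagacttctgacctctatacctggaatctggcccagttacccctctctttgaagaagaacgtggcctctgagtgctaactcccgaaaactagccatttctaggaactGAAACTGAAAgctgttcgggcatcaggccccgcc
Ifit3: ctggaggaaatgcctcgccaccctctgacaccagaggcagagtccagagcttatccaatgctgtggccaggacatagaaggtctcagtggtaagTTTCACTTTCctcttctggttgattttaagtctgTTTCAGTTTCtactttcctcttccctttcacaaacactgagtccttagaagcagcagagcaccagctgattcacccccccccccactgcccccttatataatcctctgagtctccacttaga
The run in Oas1a holds 2 overlapping cores and ends 4 bases before the start site, that in Igtp ends 24 bases before it, and the nearer of the 2 in Ifit3 ends 112 bases before it.

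**Figure D5:**
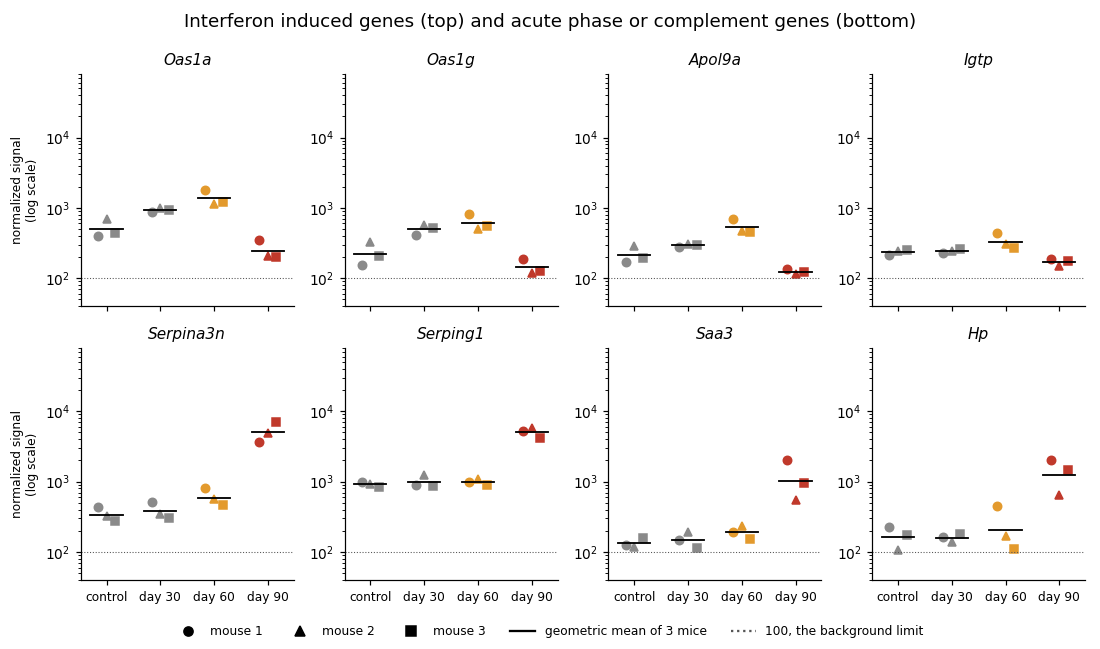
Normalized signal (log axis) of 4 interferon-induced genes (top) and 4 acute phase or complement genes (bottom) in every mouse of the series, by group (control, day 30, day 60, day 90), with mouse 1 as circle, mouse 2 as triangle and mouse 3 as square, a black bar at the geometric mean and a dotted line at the background limit of 100. The top genes are lowest at day 90 and the bottom genes highest at day 90; Hp spans 641 to 2009 among the day 90 mice.

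Several acute phase and complement genes went the other way, most of them named by the study's tables alone. Serpina3n, a serine protease inhibitor induced in inflammation, read 3673, 4984 and 7082 in day 90 mice 1 to 3, against 816, 559 and 460.3 in day 60 mice 1 to 3. All day 90 mice were above all day 60 mice, 8.51-fold (log2 3.09 ± 0.25, adjusted p = 2.28e-05). Serping1†, the C1 inhibitor, read 5209.8, 5849.9 and 4171 in the day 90 mice and 984, 1076 and 882 in the day 60 mice. At day 60 it was level with control mice (829 to 980), and the difference was 5.14-fold (adjusted p = 5.52e-06). Hp† (haptoglobin, 6.09-fold) and Saa3† (serum amyloid A3, 5.39-fold) were higher with a wide spread among the day 90 mice, and Lrg1† was 3.37-fold higher. Of 13 genes 8 were higher and 1 lower (Orm1, log2 fold change -0.60, adjusted p = 0.013); among the 7 named from the probe identifier 2 were higher, Serpina3n and the complement gene C4b (log2 fold change 1.04, and close in sequence to C4a†, so that its probe may respond to both), and 1 lower. Among those 7 the median log2 fold change was -0.008. Over all 13 genes the sum was 18358, 15856 and 19588 in day 90 mice 1 to 3 and 5021, 4095 and 3307 in day 60 mice 1 to 3. The count and the sum of the whole list thus include genes selected as higher at day 90 than in control, and are not independent evidence. Neutrophil genes were higher at day 90 too, and their part in these values was not tested.

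Neutrophil genes were higher, most of all in 1 mouse. S100a8†, a calcium-binding protein abundant in neutrophils, read 1455, 282 and 447 in day 90 mice 1 to 3, against 92.6, 100.3 and 72.1 in day 60 mice 1 to 3. The ages did not overlap (6.49-fold, adjusted p = 0.00183), but day 90 mouse 1 stood well above both other mice of its age, and without it the log2 fold change was 2.02. Its partner S100a9 read 1431, 259.6 and 356 in the day 90 mice and 118, 244 and 103 in the day 60 mice. It passed with all mice (3.55-fold, adjusted p = 0.0339) and did not without day 60 mouse 1 (adjusted p = 0.0749) or without day 60 mouse 3 (adjusted p = 0.119), and its log2 fold change was 1.08 without day 90 mouse 1, against 1.83 with all mice. Lcn2† (lipocalin 2, an iron-withholding protein also made by epithelium) was even among the older mice, with 335, 286 and 328, against 94.6, 102 and 76.9 in the day 60 mice (3.49-fold, adjusted p = 1.55e-05). The chemokine Cxcl1 was 2.27-fold higher, and Cxcl2 at least 2.13-fold, set against the limit of 100. Cxcl2 exceeded 100 on the day 90 arrays alone, so it passed the filter on dim probes only through the older mice. Of 10 genes 6 were higher, against 13.7% of all named genes (3 of the 7 named from the probe identifier). The list summed to 6624, 2263 and 2510 in day 90 mice 1 to 3 and to 1274, 1594 and 1184 in day 60 mice 1 to 3, and the count was 2 with a floor of 100 or with a trended and robust estimate of spread. Il1b† lost its call when any of 3 single mice was left out (adjusted p up to 0.116), and its log2 fold change was 0.75 without day 90 mouse 1, against 1.34 with all mice, and the neutrophil receptors Cxcr2 and Csf3r did not pass (log2 fold changes -0.08 and 0.14).

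Among other leukocyte genes, 1 of 7 macrophage genes was higher, a share near the 13.7% of all named genes: Spp1 (osteopontin, 1.75-fold, adjusted p = 0.001), while Cd68, Csf1r and C1qa did not pass (adjusted p = 0.27, 0.79 and 0.62), and the list summed to 6066 to 7786 at day 90 and 4249 to 4847 at day 60. Of the 5 T and NK cell genes with a named probe, 0 reached the filter on dim probes, so no level is given for them. Immunoglobulin segment probes were higher: of 156 antigen receptor probes tested, 96 were higher, against 9.94% of all probes, and 0 lower, among them 55 of 72 for kappa and 38 of 71 for heavy chain segments, and 0 of 7 for T cell receptor segments. Kappa segments summed to 59918, 27239 and 40679 in day 90 mice 1 to 3, against 8132, 6857 and 7496 in day 60 mice 1 to 3. All day 90 sums were above all day 60 sums, and of the earlier mice control mouse 3 alone was in their range, at 45420. The plasma cell genes Sdc1 and Xbp1 did not pass (adjusted p = 0.0922 and 0.123). Segments share sequence, so their probes are not separate measurements of separate genes. Of 345 segment probes on the array, 156 reached the filter on dim probes. That filter counted the day 90 arrays, so segments bright mainly in the older mice could enter through those mice. How many did so was not counted, and the share that was higher is therefore not separate support.

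Levels at day 60 were also set beside those of the 6 control and day 30 mice. Of the 15 largest rises, 9 of which are named by the study's tables alone, all 15 had day 90 mice above all control and day 30 mice, and 9 also had day 60 mice above them. Of the 143 probes at least 4-fold higher at day 90, the day 60 mice were above all 6 earlier mice in 48 and overlapped them in 95. Of the 15 largest falls, 13 had day 60 mice that overlapped the range of the control and day 30 mice, and 13 had day 90 mice below that range. Of the 336 probes at least 2-fold lower, the day 60 mice overlapped the earlier range in 310, lay above it in 21 and below it in 5. The control and day 30 mice did not enter the main fit. They counted toward the filter on dim probes and entered the alternative fit of all 4 groups.

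Mice of 1 age were not alike, and the same mice led repeatedly. Of the 612 probes at least 2-fold higher at day 90, day 60 mouse 1 was the highest of its age in 441 (72.1%), against 31.8% of all probes tested, and day 90 mouse 1 was the lowest of its age in 350 (57.2%), against 32.1% of all probes. Day 90 mouse 2 was the highest of its age in 398 (65.0%) of them, against 37.0% of all probes. It and day 60 mouse 1 were the mice with the Y-linked signal, and the part of sex in this order was not tested. Of the 336 probes at least 2-fold lower, day 90 mouse 1 was the highest of its age in 234 (69.6%), against 33.6% of all probes, and day 90 mouse 2 the lowest in 212 (63.1%), against 42.4% of all probes. Day 90 mouse 1 was thus often the older mouse nearest to day 60 on both sides, and day 60 mouse 1 the younger mouse nearest to day 90 among the rises. The median SD of log2 signal was 0.141 over the 3 day 90 mice and 0.125 over the 3 day 60 mice.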

How the data were processed

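RNA of each mouse was hybridised to a Sentrix Mouse-6 bead array and read with BeadStudio. The authors deposited non-normalized intensities for 12 arrays, used here, and their own normalized intensities (vsn), used as an alternative. Intensities were background corrected (normexp, offset 50), quantile normalized over the 12 arrays and put on the log2 scale in limma 3.58.1 under R 4.3.3. Probes above 100 on at least 3 arrays (22067 of 46116) were fitted with lmFit and eBayes on 6 arrays, day 90 minus day 60, with Benjamini-Hochberg adjustment over all of them. Array number limits precision. Where no array of a group exceeded 100, the fold was given as a bound against 100.

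Genes were represented by their brightest probe. Probe names are an inference: 9832 carry an NCBI gene number in the probe identifier, 983 a clone name and 345 an antigen receptor segment, and 227 were matched through the study's tables; where both routes named a probe (88) the gene was the same in 88. Named genes were the 15 largest rises and falls of non-overlapping called genes and up to 6 called members of each gene list; other list members were named after their values were seen. Members and lists were chosen with earlier results of these data known. The pipeline was tested on simulated data. Alternatives changed background, normalization, filter, test or the mice included. Slide and scan date are not given in the sources used here, so no batch could be fitted. Some named genes are not reported here.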

Additional observations from a re-analysis of the deposited data

How the results depend on the processing

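Of the 133 named genes that passed, 63 lost their call in none of the alternatives that tested them (21 were run), 70 lost it in at least 1 and 0 reversed; of 16 that did not pass, 9 gained a call in at least 1. The count of 4363 changed probes was 880 by the methods' t-test at its own thresholds (566 higher, 314 lower) and 1506 by that t-test after Benjamini-Hochberg (792 higher, 714 lower; 0 of the squamous and 0 of the endothelial genes), and 3271 with 1 fit of all 4 groups. Leaving out 1 mouse gave 2922 to 4884. Of the changed probes 50.26% were higher at day 90; this share was 58.2% on the deposited normalized values and 58.88% with cyclic loess. Scaling to the 75th percentile moved the median over all probes to -0.1016 log2, and ribosomal protein genes, with a median of 0.16, had medians of -0.05 under it and -0.06 on the deposited values. With mouse number as a replicate block the count was 3996, of which 3746 were shared. Deviations of same-numbered mice from their group means correlated at -0.01, -0.43 and 0.36, against -0.447 to 0.485 for mice of different numbers. So few values cannot decide whether the numbers pair the mice. Under the block 8 of 14 squamous genes were lower, against 0. Depth of signal limits dim genes: 380 probes tested were not above background in either group.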

Other observations

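Energy and stress genes outside the lists described above changed singly. On the list of glycolysis and hypoxia genes 2 of 15 were higher and 2 lower (median log2 fold change 0.03). These shares are near those of all named genes (13.7% higher, 11.0% lower). Eno2, the neuronal form of enolase, read 1102, 1689 and 1542 in day 90 mice 1 to 3, against 317, 243 and 209 in day 60 mice 1 to 3. The ages did not overlap, and the difference was 5.63-fold (adjusted p = 1.6e-05), whereas its ubiquitous form Eno1 did not pass (log2 fold change -0.27, adjusted p = 0.23). Pfkm, the muscle form of phosphofructokinase, was 1.80-fold higher on its brightest probe (adjusted p = 0.001), with a log2 fold change of 0.06 on a second, and the liver form Pfkl did not pass (log2 fold change -0.08, adjusted p = 0.73). The prolyl hydroxylase Egln3 and the lactate dehydrogenase Ldha were 1.95-fold and 1.77-fold lower (adjusted p = 0.00421 and 0.00921).

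Of 6 heat shock genes 1 was higher and 1 lower. Among all named genes, beside which this count and those below stand, 13.7% were higher and 11.0% lower. The chaperone Hspa8 was 1.68-fold higher (adjusted p = 0.00384), with 20662, 18956 and 17334 in day 90 mice 1 to 3 and 10511, 13850 and 9843 in day 60 mice 1 to 3, and a second probe gave a log2 fold change of 0.67. Hspe1, a mitochondrial co-chaperone, was 1.43-fold lower (adjusted p = 0.034) and lost its call when any of 4 single mice was left out. Of 6 unfolded protein response genes 0 passed in limma, 2 had an unadjusted limma p under 0.05, and 0 passed by the methods' t-test after adjustment. Among immediate early genes Klf6 and Fosl2 were 1.53-fold and 1.43-fold lower (adjusted p = 0.00386 and 0.0112), and 2 of 6 were lower in all. Of 67 cytosolic ribosomal protein genes 2 were higher and 0 lower, and both lost their call when any of 5 single mice was left out.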
